A study of Homo sapiens with 2 samples.

Results

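The genes described here are 33 human genes of homologous recombination, the Fanconi anaemia pathway and the ATM and ATR checkpoint, a list fixed by gene name and read at probe sets paired with 1 gene. Of the 33, 28 had such a probe set and 27 passed the filter on dim values, out of 13704 genes measured in all. Total RNA of HCT116, a mismatch repair-deficient human colorectal cancer line, was hybridised to 3′ expression arrays after biotin labelling. The HCT116-CPEB4 culture was labelled as over-expressing the RNA-binding protein CPEB4, which the array's own CPEB4 probe sets do not show, and the HCT116-GFP culture was labelled wild type. Each was measured on 1 array, so no difference below has a replicate check and no p-value was computed. The labels do not say whether the HCT116-GFP cells carried a vector, or whether either line was a clone or a pool.

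Homologous recombination repairs a broken chromosome by copying the sister chromatid. The ends are resected to single strands, BRCA1, PALB2 and BRCA2 prepare them for strand exchange, and further proteins and helicases shape and resolve the joint molecules. The Fanconi proteins form a core complex that attaches ubiquitin to FANCD2 and FANCI at crosslinked DNA, and they share BRCA2, PALB2, BRIP1 and RAD51C with recombination. ATM answers to double-strand breaks and ATR to single-stranded DNA at stalled forks, and both act through the kinases CHEK2 and CHEK1. Many of these genes are transcribed most strongly in S phase, when a sister chromatid is at hand.

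The 2 arrays had median intensities of 61.1 for HCT116-CPEB4 and 60.6 for HCT116-GFP over 54675 probe sets. The 4 probe sets of CPEB4 itself all read lower on the array labelled HCT116-CPEB4, by log2 differences of −0.08, −0.22, −0.44 and −1.52, the last under the dim filter on both arrays, and what part of the transcript they read is not known here. The direction of every difference therefore rests on the labels. The epithelial genes EPCAM, KRT8, KRT18 and KRT19 were bright on both arrays, while the colon markers CDH17 and LGALS4 were below the dim filter on both. CDX2 read 120 on HCT116-CPEB4 and 103 on HCT116-GFP, CDH1 read 2954 and 3709, and the kept probe sets of VIL1 lay at 1.26 and −5.60. Markers of other tissues were taken at the probe set brightest on the HCT116-GFP array. There 2 of 7 fibroblast, 3 of 5 blood, 1 of 5 endothelial and 3 of 4 kidney markers reached the filter on the HCT116-CPEB4 array. On the HCT116-GFP array 1, 2, 1 and 3 of them did. For the control gene ACTB, the ratio of 3′ to 5′ signal, which grows with RNA degradation, was 10.3 on the CPEB4-labelled array and 8.23 on the HCT116-GFP array. For GAPDH it was 1.04 and 0.989. The part of RNA quality in the differences was not tested.

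Most of the repair and checkpoint genes read slightly higher on the CPEB4-labelled array. A gene's difference is the log2 intensity on the CPEB4-labelled array minus that on the HCT116-GFP array, at its brightest kept probe set. Of the 27 measured members, 23 lay above 0 and 4 below (22 above 0 after quantile normalization), where 50.1% of all measured genes lay above 0. The median difference was 0.18, or 1.13-fold, against 0.00 over all measured genes, and single members ran from −0.38 for ATM to 0.59 for FANCL. The 4 genes below 0 were ATM, CHEK2, FANCI and NBN.

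The differences were small. At 1.5-fold, the size rule used here, 1 member was higher (FANCL) and 0 were lower, where 8.22% of all measured genes were higher and 8.3% lower. FANCL was under this size after median centring (0.56) and with a pseudocount of 32 (0.58), which left 0 members past it. At 2-fold there were 0 members in either direction, where 3.55% of all genes were higher and 3.85% lower. At 1.2-fold, a size chosen after the values were seen, 11 members were higher and 2 lower, where 21.7% of all genes were higher and 22% lower. At 1.25-fold, a size also chosen after the values were seen, 10 members were higher and 2 lower, where 17.7% of all genes were higher and 17.9% lower. The share of members past 1.5-fold was therefore no larger than that of all genes, and the shift lay in small differences.

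**Figure D1:**
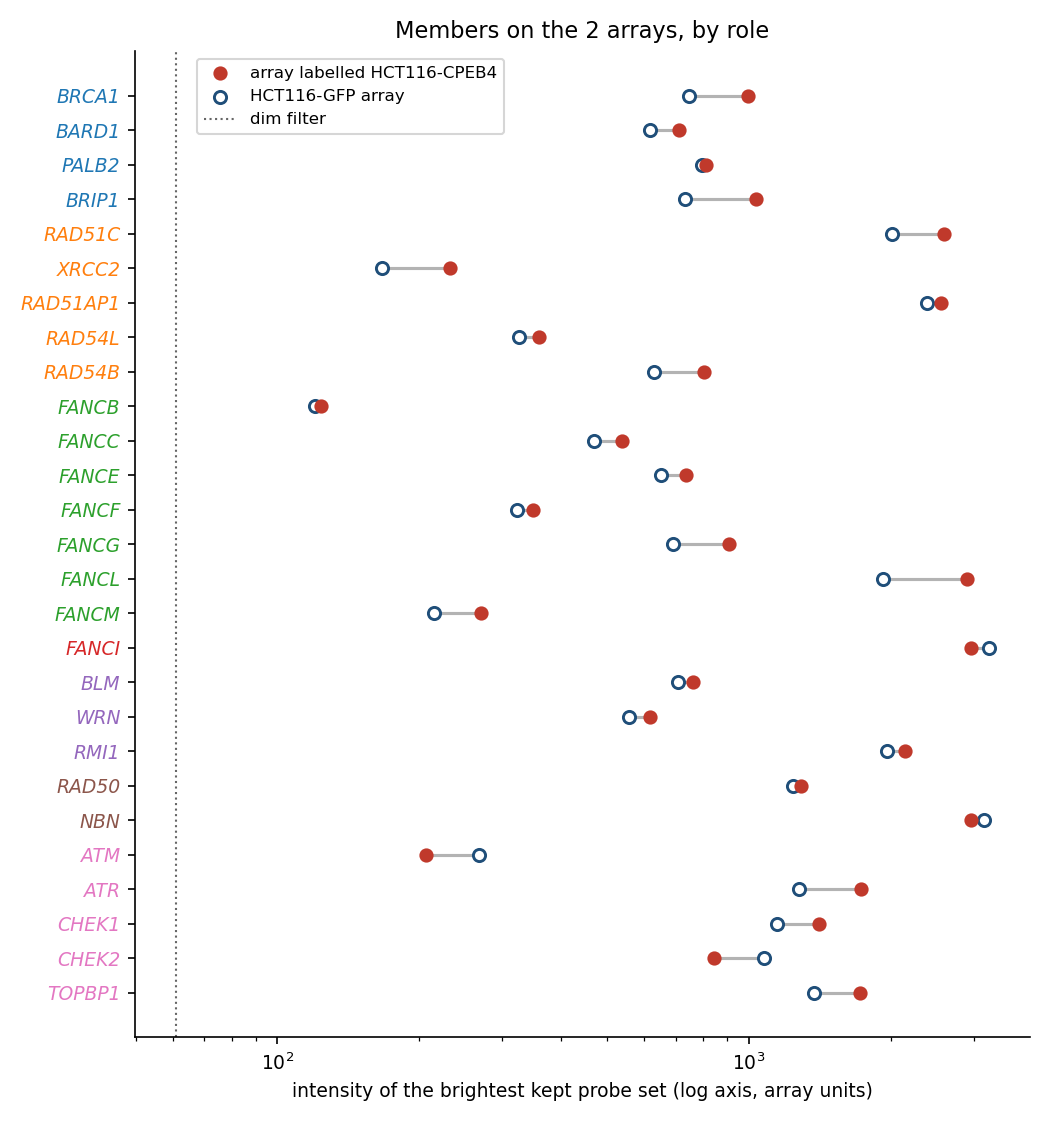
Intensity of each measured member at its brightest kept probe set (log axis, array units) on the array labelled HCT116-CPEB4 (filled) and the HCT116-GFP array (open). Gene names are coloured by role in the order of the text. The filled point lies to the right of the open one for 23 of the 27 genes, and to its left for FANCI, NBN, ATM and CHEK2.

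How far a gene strays from 0 on such a pair of arrays depends on how bright it is. Genes were divided into quartiles of mean log2 intensity, and the middle 50% of all genes ran from −0.59 to 0.51 in the dimmest quartile and from −0.16 to 0.13 in the brightest. Of the members, 1, 7, 13 and 6 fell in the quartiles from dimmest to brightest. In the third quartile, 12 of the 13 members lay above 0 and 8 lay above that quartile's 75th percentile of 0.20. In the second quartile, 6 of 7 lay above 0 and 2 lay above its 75th percentile of 0.25. In the brightest quartile, 4 of the 6 members lay above 0, with a median of 0.11, and 2, FANCL and RAD51C, lay above its 75th percentile of 0.13.

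**Figure D2:**
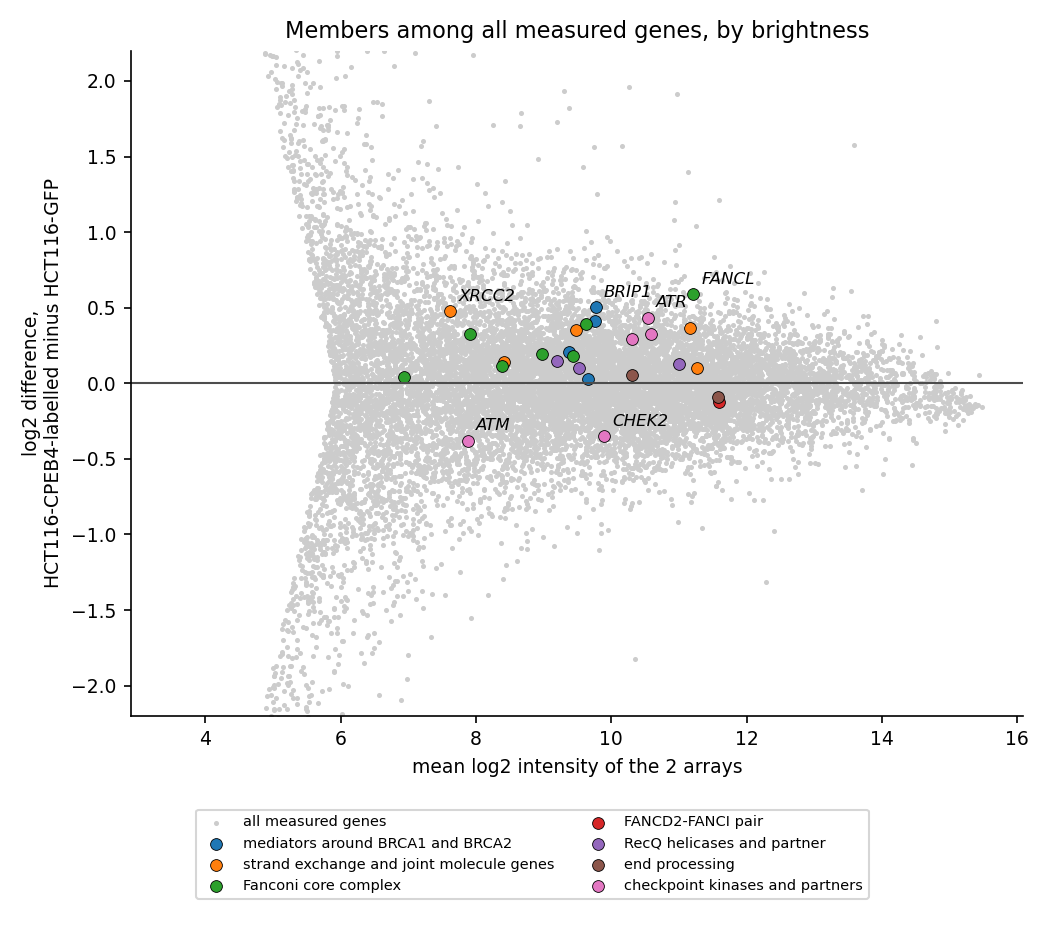
Log2 difference (HCT116-CPEB4-labelled minus HCT116-GFP) against the mean log2 intensity of the 2 arrays, for all 13704 measured genes (grey) and the 27 members (coloured by role). The grey cloud narrows with brightness, and 306 genes beyond 2.2 in either direction are not drawn. FANCL, at 0.59, sits near the upper edge of the cloud at its brightness, and ATM and CHEK2 are the members farthest below 0.

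Separate probe sets give the only internal repeat of a measurement. The 27 members had 52 kept probe sets, of which 40 lay above 0 and 12 below. The filter tilted this count: 3 of the 40 (at FANCB, FANCM and ATM) were kept through the CPEB4-labelled array alone and 0 through the HCT116-GFP array alone. Of the 49 that reached the filter on both arrays, 37 lay above 0 and 12 below. Of the 29 that reached 377 intensity units on an array, 26 lay above 0, and of the 23 dimmer ones 14 did. Among all 12750 probe sets of that brightness, 49.7% lay above 0. The gap between a gene's 2 brightest probe sets had a median of 0.28 over the 13 members with several and 0.27 over all 6520 such genes. All kept probe sets lay above 0 for 5 of these 13 members (BRCA1, RAD51C, FANCB, ATR and CHEK1), where 23.4% of all such genes had them all above 0. For FANCB the filter had a part in this, since 1 of its kept probe sets was under the filter on the HCT116-GFP array and a dimmer one at −0.92 was not kept. All lay below 0 for 0 of the 13, where 22.2% of all such genes did, and the other 8 members had probe sets on both sides of 0.

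**Figure D3:**
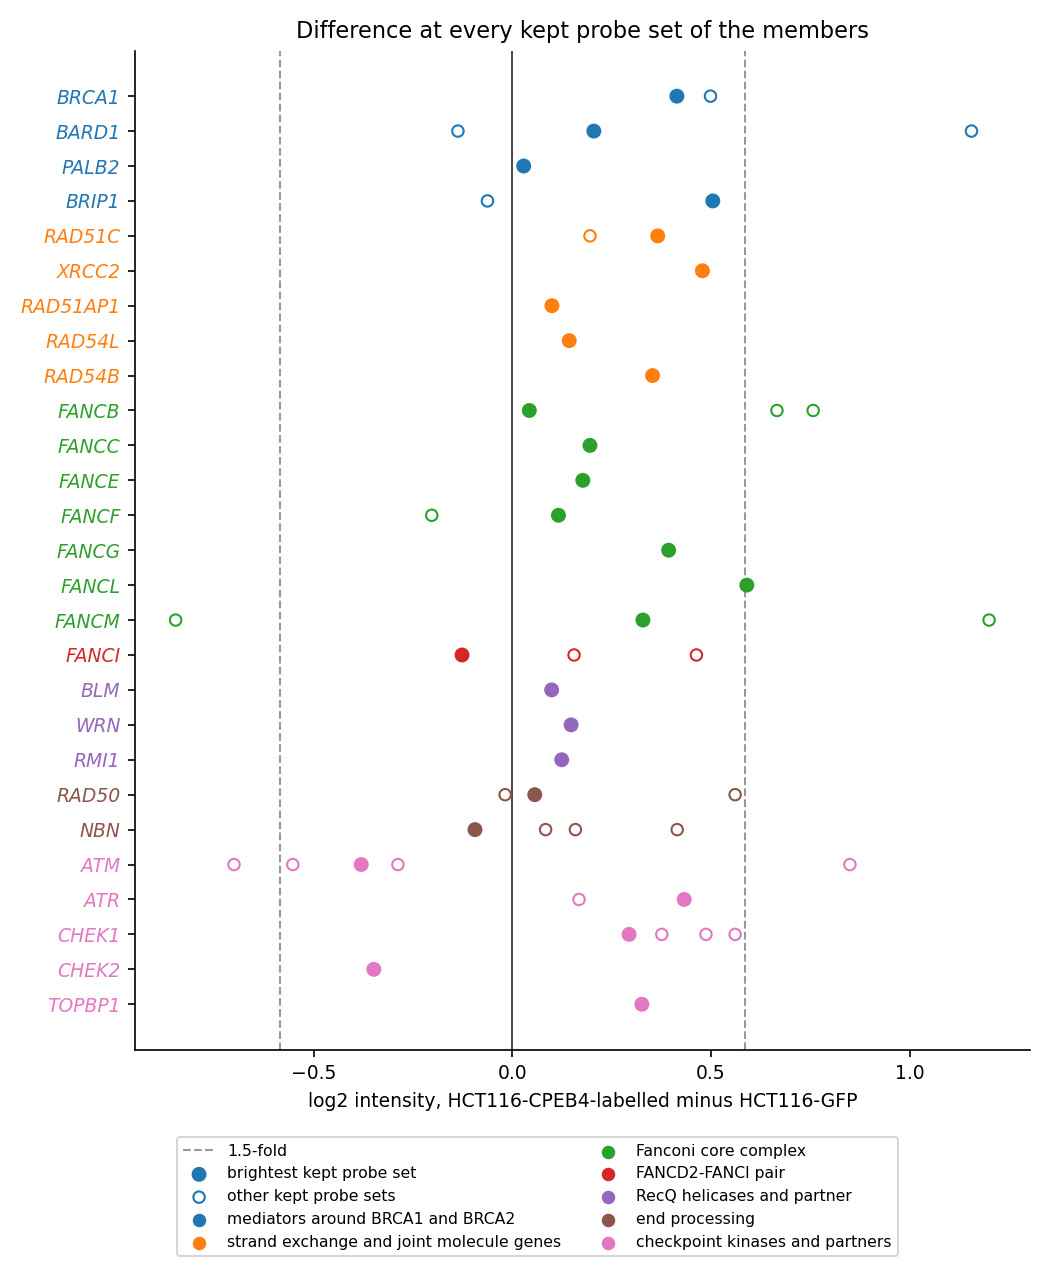
Log2 difference (HCT116-CPEB4-labelled minus HCT116-GFP) at each of the 52 kept probe sets of the 27 measured members, coloured by role, with the brightest probe set of a gene filled and the others open. Dashed lines mark 1.5-fold. All 4 probe sets of CHEK1 lie between 0.29 and 0.56, while those of FANCM run from −0.85 to 1.2 and those of ATM from −0.70 to 0.85.

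Promoter windows of RefSeq (build GRCh38.p14, 250 bases before to 50 after an annotated start) were found for 29 of the 33 members. Of these windows, 4 are shown because they carry letters of factors that drive S-phase and mitotic genes, or because their genes belong to the checkpoint arm. Each is given 5′ to 3′ on the strand of its gene, with the matched letters in capitals. In the windows shown, TOPBP1 and XRCC2 hold E2F letters and CHEK1 holds 3 CCAAT boxes in reverse. ATM, which read lower, holds a CCAAT box in reverse and CHR letters in its window shown. The other ATM window holds further CCAAT boxes, which begin at bases −56 and 37 from that window's annotated start. Each of the other CHEK1 windows holds a CCAAT box in reverse. Of the measured members not shown, FANCC (0.20) and RMI1 (0.12) also hold E2F letters. BRIP1, which read higher (0.50) and is not shown, also holds CCAAT boxes in reverse and CHR letters. CHEK2, which read lower (−0.35) and is not shown, holds 3 CCAAT boxes in reverse, as CHEK1 does. The windows lie at chr3:133661892-133662191 on the minus strand for TOPBP1, chr7:152676092-152676391 on the minus strand for XRCC2, chr11:125626106-125626405 on the plus strand for CHEK1 (the last of its 3 windows) and chr11:108222817-108223116 on the plus strand for ATM (the first of its 2 windows).
TOPBP1: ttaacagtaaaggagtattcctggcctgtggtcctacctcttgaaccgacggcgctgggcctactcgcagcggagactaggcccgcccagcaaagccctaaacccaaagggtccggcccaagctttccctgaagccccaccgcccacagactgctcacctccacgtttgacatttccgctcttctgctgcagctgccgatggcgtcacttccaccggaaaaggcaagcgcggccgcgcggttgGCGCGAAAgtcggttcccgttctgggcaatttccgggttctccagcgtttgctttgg
XRCC2: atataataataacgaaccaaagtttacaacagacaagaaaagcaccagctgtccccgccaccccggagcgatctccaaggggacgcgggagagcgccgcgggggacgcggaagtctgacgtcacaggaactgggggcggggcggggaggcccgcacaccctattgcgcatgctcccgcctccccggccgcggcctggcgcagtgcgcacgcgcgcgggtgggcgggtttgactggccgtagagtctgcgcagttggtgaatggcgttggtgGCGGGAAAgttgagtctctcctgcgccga
CHEK1: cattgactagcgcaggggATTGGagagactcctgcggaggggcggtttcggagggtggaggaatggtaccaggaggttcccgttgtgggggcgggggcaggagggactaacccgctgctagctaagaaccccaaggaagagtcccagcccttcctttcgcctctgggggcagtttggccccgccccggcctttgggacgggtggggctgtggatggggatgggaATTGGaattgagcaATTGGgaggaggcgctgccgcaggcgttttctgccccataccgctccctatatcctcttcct
ATM: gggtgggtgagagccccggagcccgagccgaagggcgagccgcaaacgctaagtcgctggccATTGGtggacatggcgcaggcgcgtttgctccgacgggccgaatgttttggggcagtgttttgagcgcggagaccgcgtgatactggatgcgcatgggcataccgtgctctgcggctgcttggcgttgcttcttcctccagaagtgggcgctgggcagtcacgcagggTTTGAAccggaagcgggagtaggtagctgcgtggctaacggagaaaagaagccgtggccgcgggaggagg

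The E2F letters searched were TTTCCCGC, TTTCGCGC, TTTGCCGC and TTTGGCGC on both strands. They were present in 6 of the 29 members with a window (XRCC2, FANCA, FANCC, FANCD2, RMI1 and TOPBP1), or 20.7%, against 6.29% of 11041 measured genes with a window and 3.99% of all 27305 genes with one. The 4 measured members that hold them had a median difference of 0.26, and the 19 measured members without them 0.18. Over all measured genes the medians were 0.06 for the 694 genes with the letters and 0.00 for the rest. For the CCAAT box the split in the members ran the other way, with a median of 0.12 for the 12 measured members that hold it and 0.33 for the 11 without. Over all measured genes it did not, with medians of 0.01 with the box and −0.01 without. For the CHR letters the medians were 0.20 for 3 measured members with them and 0.19 for 20 without. The CCAAT box (CCAAT on both strands) was in 15 of 29 members, or 51.7%, against 42.6% of measured genes and 39.7% of all genes. The CHR letters TTTGAA were in 3 of 29, or 10.3%, against 13.98% of measured genes and 18.2% of all genes. Letters of the interferon response element, TTTCNNTTT on both strands, were found in 1 of 29 (BRCA1), or 3.45%. That compares with 9.95% of measured genes and 12.6% of all genes. No 2 of these motifs overlapped in the windows shown, and a match is a description of the letters only.

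BRCA1 and its partners lay above 0 in 4 of 4 measured cases, with a median difference of 0.31 (0.21 over 3 genes without probe sets ending in _x_at or _s_at, endings that mark probes shared between transcripts or genes), although PALB2 turned to −0.01 after quantile normalization. BRCA1, a ubiquitin ligase that promotes resection, read 995 on the CPEB4-labelled array and 747 on the HCT116-GFP array at its brighter probe set, a difference of 0.41. Its other probe set read 153 and 108, a difference of 0.50, so both lay on the same side. BARD1, which forms the ligase with BRCA1, read 712 and 617 at its brightest probe set (0.21), while its other probe sets lay at 1.16 and −0.14. The helicase BRIP1, which binds the BRCT repeats of BRCA1, read 1038 on the CPEB4-labelled array and 731 on the HCT116-GFP array (0.50), and 68.1 and 71.1 at a second probe set near the dim filter (−0.06). PALB2, the bridge from BRCA1 to BRCA2, read 811 and 795 and was hardly different (0.03). BRCA2 has no probe set paired with it alone and was not analysed here.

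The genes of strand exchange and joint molecules were above 0 in 5 of 5 measured cases, with a median difference of 0.35. Without probe sets ending in _x_at or _s_at, 3 of these genes were left and their median was 0.14. RAD51C, a subunit of the complexes with XRCC2 and with XRCC3, read 2599 and 2152 at its 2 probe sets on the CPEB4-labelled array, against 2017 and 1879.5 on the HCT116-GFP array. Both probe sets lay above 0, at 0.37 and 0.20. XRCC2, its partner in the larger of these complexes, read 232 on the CPEB4-labelled array and 167 on the HCT116-GFP array (0.48), at a probe set marked for possible cross-hybridisation. The translocase RAD54B, which helps a strand invade a duplex, read 804 and 630 (0.35). Its relative RAD54L read 359 and 325 (0.14), and RAD51AP1, which stimulates joint formation, read 2555 and 2385 (0.10). XRCC3, the partner of RAD51C in the smaller complex, read 29.5 and 19.3 and stayed under the dim filter on both arrays.

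The Fanconi core complex was above 0 in 7 of 7 measured cases, or 6 of 7 with the mean over probe sets, and had a median difference of 0.20 (0.17 to 0.29 over the alternatives). FANCL, the ubiquitin ligase subunit, read 2902 on the CPEB4-labelled array and 1927 on the HCT116-GFP array, which is 1.51-fold. That difference of 0.59 stood at percentile 91.9 of all genes and percentile 98.9 of the brightest quartile, at a single probe set. FANCG, a scaffold subunit, read 909 and 692 (0.39). FANCC, FANCE and FANCF form a module that brings FANCD2 to the ligase. FANCC read 538 and 470.1 (0.20), FANCE read 736 and 651 (0.18), and FANCF read 349 and 322 at its brighter probe set (0.12) with −0.20 at the other.

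For the remaining core subunits, FANCM and FANCB, and for FANCI the kept probe sets differed in direction or in size. FANCM, the translocase that anchors the complex on DNA, read 270 on the CPEB4-labelled array and 215 on the HCT116-GFP array at its brightest probe set (0.33). Its dimmer kept probe sets read 98.9 and 43.0 (1.2, with the HCT116-GFP value under the dim filter), and 60.9 and 110 (−0.85), so its probe sets disagree in direction. FANCB, which holds FANCL in the complex, read 124 and 120.3 at its brightest probe set (0.04), while the other 2 kept probe sets lay at 0.67 and, with the HCT116-GFP value under the dim filter, at 0.76. FANCI, which is ubiquitinated with FANCD2, read 2962 on the CPEB4-labelled array and 3233 on the HCT116-GFP array at its brightest probe set (−0.13), and its other probe sets lay at 0.16 and 0.46. The mean over the probe sets of FANCI was 0.16, so its direction depends on which is read. FANCA and FANCD2 have no probe set paired with them alone and were not analysed here.

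The RecQ helicases and their partner were close together. BLM, which dissolves double Holliday junctions, read 759.6 on the CPEB4-labelled array and 709 on the HCT116-GFP array (0.10). WRN, a helicase and exonuclease on which mismatch repair-deficient tumour cells depend, read 616 and 556 (0.15), and RMI1, which binds BLM and topoisomerase IIIα, read 2141 and 1964 (0.12). All 3 have a single probe set, and all 3 differences were smaller than the median gap between probe sets.

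Among the genes that process broken ends, the brightest probe sets were near 0. RAD50, the ATPase that tethers ends, read 1289 on the CPEB4-labelled array and 1239 on the HCT116-GFP array (0.06), with 0.56 and −0.02 at its other probe sets. NBN, which recruits ATM to the complex of RAD50 and MRE11, read 2959.7 and 3159 at its brightest probe set (−0.09). Its 3 other kept probe sets lay at 0.08, 0.16 and 0.42, and their mean with the brightest was 0.14. RBBP8, which encodes the resection factor CtIP, has no probe set paired with it alone and was not analysed here.

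In the checkpoint arm, ATR, CHEK1 and TOPBP1 were higher on the CPEB4-labelled array, and ATM and CHEK2 were lower. CHEK1, the kinase that ATR activates, read 1407, 1069.6, 766 and 162 at its 4 probe sets on the CPEB4-labelled array, against 1148, 763, 590 and 110 on the HCT116-GFP array. The differences were 0.29, 0.49, 0.38 and 0.56, all above 0. ATR read 1727 and 563 on the CPEB4-labelled array, against 1279 and 501 on the HCT116-GFP array, with differences of 0.43 and 0.17. TOPBP1, which activates ATR at single-stranded DNA, read 1721 and 1373 (0.33). ATRIP, the partner that brings ATR to DNA, has no probe set paired with it alone and was not analysed here.

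The break-responsive pair went the other way. ATM read 206 on the CPEB4-labelled array and 268 on the HCT116-GFP array at its brightest probe set, a difference of −0.38 at percentile 14.9 of all genes. Of its 5 kept probe sets, 4 lay below 0, at −0.29, −0.38, −0.55 and −0.70. The fifth, at 67.8 and 37.6, lay at 0.85 with its HCT116-GFP value under the dim filter. CHEK2, the kinase that ATM activates, read 845 and 1076 at its single probe set, a difference of −0.35 at percentile 16.5. That probe set ends in _s_at, so CHEK2 has no value in the setting without such probe sets. All kept ATM probe sets read under 377 intensity units. ATM stood at percentile 13.5 of its brightness quartile, the second, where 10% of genes lay below −0.45. The 2 members above the 75th percentile of that quartile, XRCC2 and FANCM, stood at percentiles 89.8 and 82.0.

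Other genes of the same pathways were listed apart from the 33, and the highest and lowest named in each list are those among genes whose kept probe sets share a sign. Of the 74 that were measured, 49 lay above 0 and the median difference was 0.08. Other homologous recombination genes lay above 0 in 21 of 30 cases (median 0.13, or 0.06 to 0.13 over the alternatives). Of the 30, 3 were higher and 0 lower by 1.5-fold, where 8.22% of all measured genes were higher and 8.3% lower. These 3, DMC1, SLX4 and RAD51D, were dim, at 78.9, 134 and 142 on the CPEB4-labelled array. The highest of the list were the meiotic recombinase DMC1 (1.22), whose HCT116-GFP value was under the dim filter, and the nuclease scaffold SLX4 (0.76). The lowest were the helicase FBH1 (−0.43) and the BRCA2-binding SEM1 (−0.42). Other checkpoint and damage signalling genes lay above 0 in 21 of 28 cases (median 0.08, or 0.02 to 0.12 over the alternatives). Their highest were the phosphatase CDC25A (1.70, with 0.44 at its other kept probe set) and the fork protein TIPIN (0.63). Their lowest were CDC25B (−0.48) and UIMC1, which brings BRCA1 to ubiquitin chains (−0.43). Other Fanconi and crosslink repair genes lay above 0 in 7 of 16 cases, with a median of −0.04 that ran from −0.06 to 0.01 over the alternatives. The ubiquitin ligase RFWD3 (0.61) and the ubiquitin-conjugating enzyme UBE2T (0.22) were their highest, and the polymerase subunit REV3L (−0.36) and the nuclease subunit ERCC1 (−0.33) their lowest.

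The members' median lay between those of the replication genes and the excision repair genes. Replication origin and fork genes lay above 0 in 30 of 37 cases with a median of 0.23. Among those whose probe sets share a sign they ran from POLD3 (0.73) and RFC2 (0.71) to RFC1 (−0.30) and TICRR (−0.50, with −0.02 at its other kept probe set). Base and nucleotide excision repair genes had 18 of 32 above 0 and a median of 0.02 (−0.01 to 0.05 over the alternatives), and ran among the same kind of genes from XPA (0.50) and FEN1 (0.41) to ERCC6 (−0.47) and MPG (−0.59). End joining genes had 8 of 10 above 0 and a median of 0.41. Without probe sets ending in _x_at or _s_at, 5 of 8 lay above 0 and their median was 0.11, under the members' median of 0.17 in that setting. The end joining genes whose probe sets share a sign ran from POLL (1.81, its HCT116-GFP value under the dim filter) and LIG4, the ligase of end joining (0.74), through PAXX (0.06) to PRKDC (−0.12). Differences between these lists were not tested, because each rests on the same 2 arrays.

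**Figure D4:**
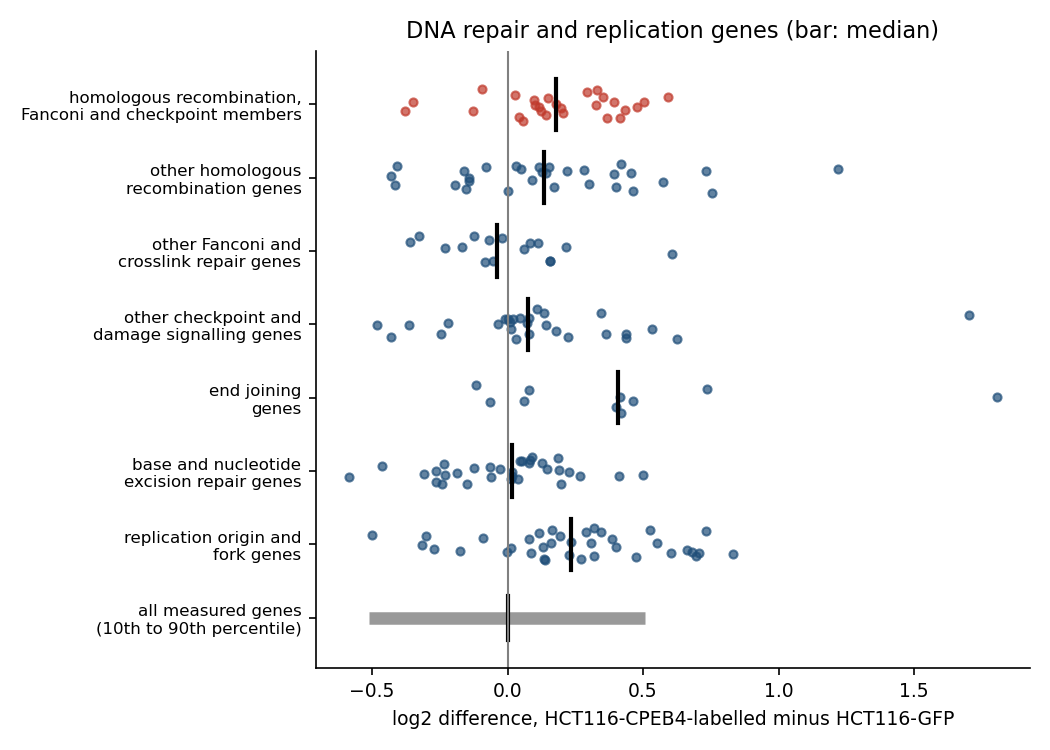
Log2 difference (HCT116-CPEB4-labelled minus HCT116-GFP) of each measured gene in the 33-gene list (red) and 6 other repair and replication lists (blue), with black bars at the medians. The grey bar spans the 10th to 90th percentile of all measured genes, from −0.51 to 0.51. The members' median is 0.18, that of the replication genes 0.23 and that of the excision repair genes 0.02.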

How the data were processed

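The authors' deposited table holds 1 linear intensity per probe set and array. The submitters' processing notes name Partek without a role, and no label states the summarisation, background correction or scaling. Both arrays have a 2% trimmed mean of 500.1. Genes were assigned from the platform's annotation, with symbols updated by Entrez identifier to RefSeq (GRCh38.p14). Of 54675 probe sets, 41097 had 1 gene, 1801 several and 11777 none, and those with several or none were left out.

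Log2 was taken without a pseudocount. A probe set was kept if its higher intensity reached 60.8, the 50th percentile of all values, which left 25010. Each gene took its kept probe set of highest mean log2 intensity. Differences are HCT116-CPEB4 minus HCT116-GFP and have no test, and 2 arrays limit the precision of every value. The gene-level steps were tested on simulated data. Alternatives were 3 other scalings, 2 other filters, 2 other probe set rules, a pseudocount of 32, and other size rules. The genes and lists were chosen with earlier results of these data known. All members are named, with the 2 highest and 2 lowest genes of each other list among those whose kept probe sets share a sign. EPCAM, keratins, CDH17, LGALS4, CDX2, CDH1, VIL1 and neighbours were named after their values were seen. Protein sequences were not analysed here. Python 3.11.15, numpy 2.4.6, pandas 2.3.3 and statsmodels 0.14.6 were used.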

Additional observations from a re-analysis of the deposited data

How the results depend on the processing

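The median difference over the members stayed above 0 under all 8 alternatives, from 0.14 after quantile normalization to 0.20 with the mean over probe sets. The count of members higher by 1.5-fold was 1 in the reported setting. It was 0 after median centring and with a pseudocount of 32, where FANCL lay just under the size rule, and 0 at 2-fold. It was 2 without the dim filter, which adds the dim XRCC3 (0.61), and 2 without probe sets ending in _x_at or _s_at, where FANCM is read at 1.2, and it was 11 at 1.2-fold and 10 at 1.25-fold. The count lower by 1.5-fold was 0 in all of these settings and 2 at both 1.2-fold and 1.25-fold. Of the 27 measured members, 21 lay above 0 and 2 below 0 (ATM and CHEK2) in the reported setting and in every alternative that gave a value. CHEK2 gave none without probe sets ending in _x_at or _s_at. The other 4 of the 27 members changed sign: PALB2 (lowest −0.01), FANCF (lowest −0.20), FANCI (highest 0.16) and NBN (highest 0.14). The median of the end joining genes ran from 0.11 (5 of 8 above 0) to 0.40 over the alternatives, and that of the strand exchange and joint molecule genes from 0.14 to 0.36. No paired analysis was possible because each group has 1 array.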

Other observations

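Several members share a promoter region with a gene transcribed in the opposite direction, so the neighbour's reading can be set beside the member's. Of 29 members with an annotated promoter window, 15 had such a neighbour with its start within 1000 bases, and 8 pairs were measured on both sides. Both genes lay above 0 in 2 pairs, both below in 1, and on either side of 0 in 5. Of all measured genes, 50.1% lay above 0. Neither the share of all genes with such a neighbour nor the sides of all such pairs were computed. The counts are therefore descriptions only. RAD51AP1 (0.10) and FERRY3 (0.57), 421 bases apart, were both above 0, as were PALB2 (0.03) and DCTN5 (0.08). ATM (−0.38) and NPAT (−0.05), a regulator of histone gene transcription, lie 429 bases apart and were both below 0.

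BRCA1 differed by 0.41, while its neighbours NBR1 and NBR2 differed by −0.08 and −0.12. BRCA1 has annotated starts at 43125364 and 43170327 on chromosome 17, and a neighbour's distance was taken from the nearer one. NBR1 and NBR2 therefore need not lie at the same BRCA1 start. Both BRCA1 pairs count among the 5 on either side of 0. CHEK2 differed by −0.35 and HSCB, 212 bases away, by 0.21. FANCB and MOSPD2 read 0.04 and −0.37, and RMI1 and HNRNPK read 0.12 and −0.11. These sides are those of the brightest kept probe sets. Over all kept probe sets HNRNPK ran from −0.11 to 0.17 and DCTN5 from −0.04 to 0.27, so the side of their pairs depends on the probe set. Those of NBR1, FERRY3, MOSPD2 and NPAT stayed on the same side. PALB2, the partner of DCTN5, turned to −0.01 after quantile normalization. The number of pairs is small and each value comes from 2 arrays.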
